A study of Mus musculus with 20 samples.

Results

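Cell cycle and proliferation genes were read in the islet RNA of mice that lack mitofusins in their β-cells, as a module of 41 genes named by symbol. All 41 were found among the 28632 genes of the count table, each as 1 Ensembl gene. They fall into 7 groups by role: 8 G1 cyclins and kinases, 3 transcription and chromatin regulators, 9 DNA replication genes, 4 genes of the S and M phase cyclins and *Cdk1*, 7 genes of mitotic kinases, the spindle checkpoint and the passenger complex, 2 genes of the mitotic exit ubiquitin ligase, and 8 genes of the spindle, kinetochore and mitotic chromosome. The last 4 groups hold 21 genes, which are called the S to M phase genes here.

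The study deleted *Mfn1* and *Mfn2*, the GTPases that fuse the outer membranes of mitochondria, with Cre driven by the *Ins1* locus, alone or together. The islet libraries were 6 of Ctrl mice, 4 of β-Mfn1KO mice (floxed *Mfn1*), 5 of β-Mfn2KO mice (floxed *Mfn2*) and 5 of β-Mfn1/2DKO mice with both. Every group held mice of both sexes, with 10 females and 10 males in all, and the age was 12 weeks. Females and males numbered 3 and 3 in Ctrl, 3 and 1 in β-Mfn1KO, and 2 and 3 in each of β-Mfn2KO and β-Mfn1/2DKO. The labels call the controls wild type, whereas the study's methods combine *Ins1*-Cre mice without floxed alleles and floxed mice without Cre. *Ins1*-Cre acts in β-cells, so the other cells of an islet keep both genes, and the islets had been kept in culture after isolation. As the check of the labels, *Mfn1* stood at 1518 to 1807 normalized counts in Ctrl, 1683 to 1807 in β-Mfn2KO, 621 to 770.4 in β-Mfn1KO and 687 to 1062 in β-Mfn1/2DKO. *Mfn2* stood at 3089 to 4373 in Ctrl, 3869 to 4607 in β-Mfn1KO, 1474 to 1688 in β-Mfn2KO and 2022 to 2131 in β-Mfn1/2DKO. A normalized count is a gene's count scaled by TMM, the normalization of edgeR, to the mean library size. Total counts ran from 12400687 to 20329064 in Ctrl, from 15745680 to 16685381 in β-Mfn1KO, from 15110046 to 59533407 in β-Mfn2KO and from 65533388 to 122947313 in β-Mfn1/2DKO. The 5 libraries of the double knockout and 2 of β-Mfn2KO, called the deep libraries here, each held at least 55962873 counts, and the other 13 held 20329064 or fewer.

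Adult β-cells divide rarely, and their entry into the cell cycle is set in G1. D-type cyclins bind Cdk4 or Cdk6, phosphorylate the retinoblastoma protein and release E2F factors, which switch on E-type cyclins and the genes that copy DNA. Genes of mitosis rise later, and are held down in resting cells by a repressor complex that sits on a short promoter element, the cell cycle homology region (CHR), often beside CCAAT boxes.

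Promoters are shown for some of the genes that the results below name. RefSeq promoters on GRCm38.p6, with 250 bases before a transcription start site and 50 from it on, were matched by symbol for 32 of the 41 genes, in 34 promoters. The 9 genes without a match were *Ccnd1*, *Ccnd2*, *Ccne2*, *Foxm1*, *Mcm4*, *Ccna2*, *Aurkb*, *Kif20a* and *Tpx2*. Capitals mark the CHR (TTTGAA or TTCGAA), the E2F site (TTTGGCGC, TTTCCCGC, TTTCGCGC or TTTGCCGC) and the CCAAT box (CCAAT), each searched on both strands, and matches may overlap. The first 4 belong to genes of DNA replication and to *Ezh2*, whose RNA differed between genotypes.
Mcm2 (chr6:88898731-88899030, minus strand): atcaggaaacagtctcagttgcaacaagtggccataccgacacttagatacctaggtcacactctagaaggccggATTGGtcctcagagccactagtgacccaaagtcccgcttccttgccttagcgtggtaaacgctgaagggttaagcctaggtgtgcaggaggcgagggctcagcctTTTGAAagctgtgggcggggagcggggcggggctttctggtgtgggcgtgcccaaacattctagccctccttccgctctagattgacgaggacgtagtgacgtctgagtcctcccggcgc
Mcm5 (chr8:75109259-75109558, plus strand): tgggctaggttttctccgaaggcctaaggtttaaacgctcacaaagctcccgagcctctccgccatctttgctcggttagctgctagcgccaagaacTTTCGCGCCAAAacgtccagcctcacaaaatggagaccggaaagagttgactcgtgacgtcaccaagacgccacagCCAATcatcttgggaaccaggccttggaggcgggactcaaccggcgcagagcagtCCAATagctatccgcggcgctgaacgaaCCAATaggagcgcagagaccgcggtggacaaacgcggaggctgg
Mcm7 (chr5:138171834-138172133, minus strand): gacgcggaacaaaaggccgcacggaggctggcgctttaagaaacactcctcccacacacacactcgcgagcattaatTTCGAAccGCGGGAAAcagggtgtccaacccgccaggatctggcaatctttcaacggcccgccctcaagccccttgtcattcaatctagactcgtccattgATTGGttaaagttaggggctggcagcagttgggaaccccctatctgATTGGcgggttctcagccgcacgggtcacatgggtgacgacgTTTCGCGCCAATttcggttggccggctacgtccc
Ezh2 (chr6:47594981-47595280, minus strand): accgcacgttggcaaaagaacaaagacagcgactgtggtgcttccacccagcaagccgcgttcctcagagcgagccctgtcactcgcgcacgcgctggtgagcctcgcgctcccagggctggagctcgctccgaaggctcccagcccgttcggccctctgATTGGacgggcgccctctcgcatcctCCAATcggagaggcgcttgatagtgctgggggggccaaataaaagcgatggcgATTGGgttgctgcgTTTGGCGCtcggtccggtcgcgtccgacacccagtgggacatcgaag

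The other 4 belong to S to M phase genes, whose RNA moved with single libraries.
Cdk1 (chr10:69352863-69353162, minus strand): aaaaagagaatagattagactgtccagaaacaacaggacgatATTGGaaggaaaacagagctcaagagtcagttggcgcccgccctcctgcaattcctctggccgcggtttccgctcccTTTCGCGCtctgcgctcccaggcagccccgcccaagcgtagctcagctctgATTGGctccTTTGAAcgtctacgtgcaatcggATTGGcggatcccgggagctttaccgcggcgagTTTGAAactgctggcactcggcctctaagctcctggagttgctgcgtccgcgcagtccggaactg
Ccnb2 (chr9:70421505-70421804, minus strand): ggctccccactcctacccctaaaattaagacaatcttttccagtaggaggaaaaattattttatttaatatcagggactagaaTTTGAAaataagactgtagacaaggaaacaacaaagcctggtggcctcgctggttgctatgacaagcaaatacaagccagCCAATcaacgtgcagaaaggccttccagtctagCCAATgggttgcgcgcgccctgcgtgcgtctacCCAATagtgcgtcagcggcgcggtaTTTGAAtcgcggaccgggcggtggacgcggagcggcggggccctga
Top2a (chr11:99024140-99024439, minus strand): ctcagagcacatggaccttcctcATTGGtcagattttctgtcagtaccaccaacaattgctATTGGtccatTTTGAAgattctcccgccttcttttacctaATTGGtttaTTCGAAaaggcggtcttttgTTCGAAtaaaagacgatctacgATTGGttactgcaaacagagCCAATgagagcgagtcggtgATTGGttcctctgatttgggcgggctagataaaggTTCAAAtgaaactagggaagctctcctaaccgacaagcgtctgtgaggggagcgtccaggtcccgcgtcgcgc
Mki67 (chr7:135716330-135716629, minus strand): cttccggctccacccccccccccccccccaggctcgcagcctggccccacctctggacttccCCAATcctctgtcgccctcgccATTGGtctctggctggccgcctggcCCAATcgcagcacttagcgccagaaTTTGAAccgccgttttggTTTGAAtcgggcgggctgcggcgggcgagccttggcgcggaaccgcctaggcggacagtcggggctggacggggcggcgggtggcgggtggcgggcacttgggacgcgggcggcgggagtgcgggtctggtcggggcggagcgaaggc

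A CHR was found in 13 of the 17 promoters of S to M phase genes (76.5%), in 3 of the 9 of DNA replication genes, in 0 of the 6 of G1 cyclins and kinases, and in 19.2% of all 32851 promoters of the same length. The 6 promoters of G1 cyclins and kinases belong to 5 genes, with *Ccnd1*, *Ccnd2* and *Ccne2* missing. An E2F site was found in 4 of the 9 promoters of DNA replication genes (44.4%), in that of *Ezh2*, in that of *Cdk2*, and in 1 of the 17 of S to M phase genes, against 2.26% of all promoters. CCAAT boxes were found in 15 of the 17 (88.2%) and in 9 of the 9, against 37.4% of all. In *Top2a* the window held 4 CHR and 6 CCAAT matches, and in *Mki67* it held 2 and 3. In *Mcm5* the 2 E2F matches overlapped each other, and of the 2 start sites listed for *Mcm7* the one with E2F matches is shown. The window of *Mcm2* held 1 CHR and 0 E2F matches. A match is a string of letters and not a measured binding site.

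**Figure D1:**
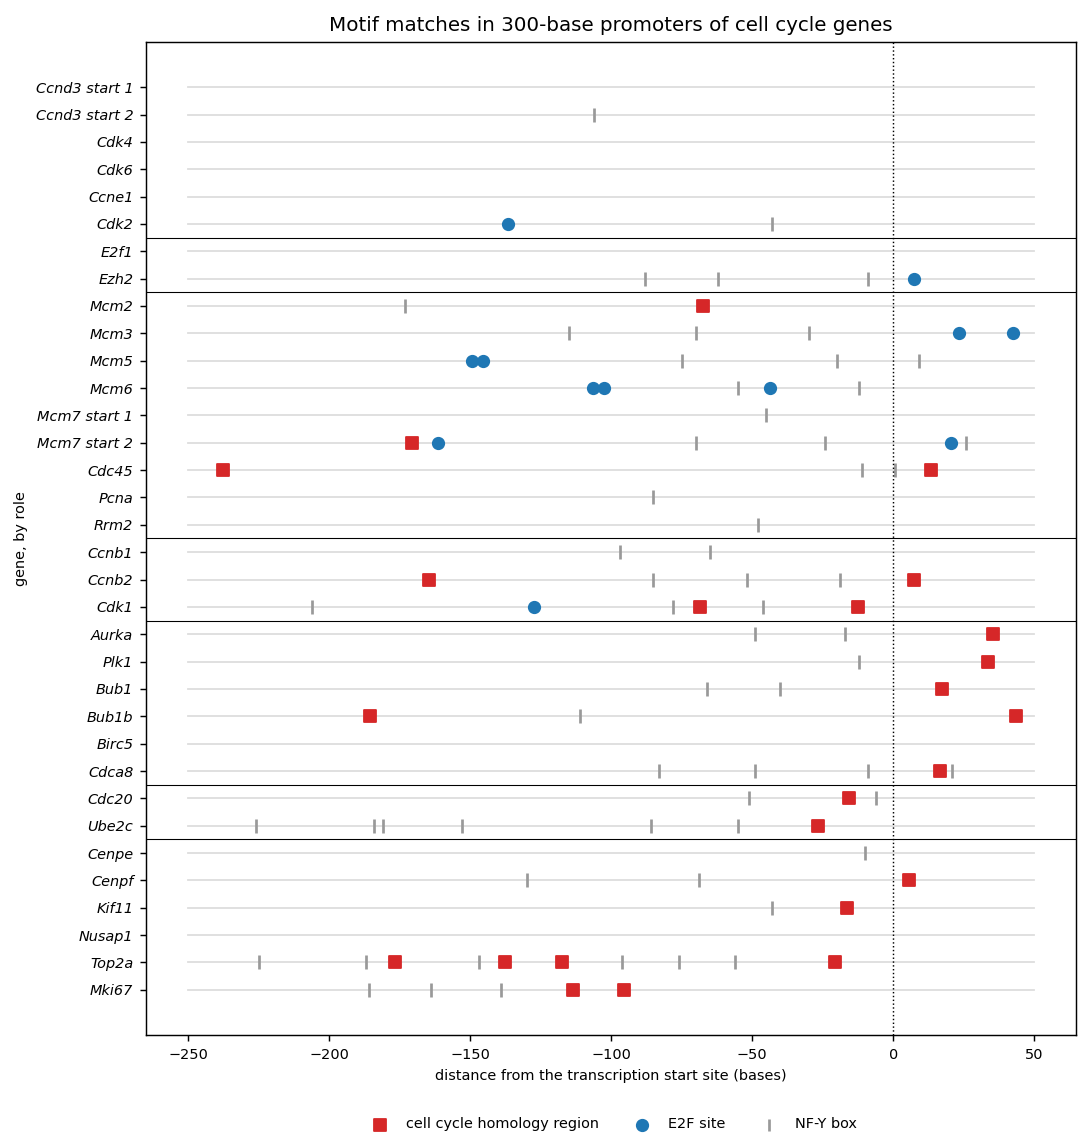
Positions of CHR, E2F site and NF-Y (CCAAT) box matches in the 34 promoters, as distance in bases from the transcription start site (dotted line), with genes ordered by role. Red squares (CHR) lie in 13 of the 17 promoters of S to M phase genes, and blue circles (E2F sites) in 4 of the 9 of DNA replication genes.

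The members differed in level by over 3 orders of magnitude, and the D-type cyclins, *Cdk4* and *Pcna* stood above every gene of mitosis. Per kilobase of exon, the Ctrl mean was 3314 normalized counts for *Ccnd2*, 1762 for *Cdk4*, 1606 for *Ccnd1* and 913 for *Pcna*, which encode cyclin D2, its kinase, cyclin D1 and the sliding clamp of DNA polymerase. It was 118 for *Mcm2* and 43.1 for *Ezh2*. The G1 genes *Ccne1*, *Cdk2* and *Cdk6* were at 34.7, 26.3 and 4.12, and the mitotic kinase *Aurka* at 47.6. The mean was 9.95 for *Top2a*, 9.36 for *Mki67* and 4.27 for *Cdk1*, and the lowest were *Bub1* at 2.72 and *Cenpf* at 2.36. Among the S to M phase genes the Ctrl means ran from 9.99 to 121 normalized counts. In the Ctrl libraries *Cdk1* rested on 2 to 16 reads and *Mki67* on 15 to 67, so that these genes have a wide counting error. Of the 41 members, 40 had a mean of at least 10 counts per library, and 37 passed edgeR's filter on low counts, which did not keep *Aurkb*, *Bub1*, *Birc5* and *Ube2c*.

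**Figure D2:**
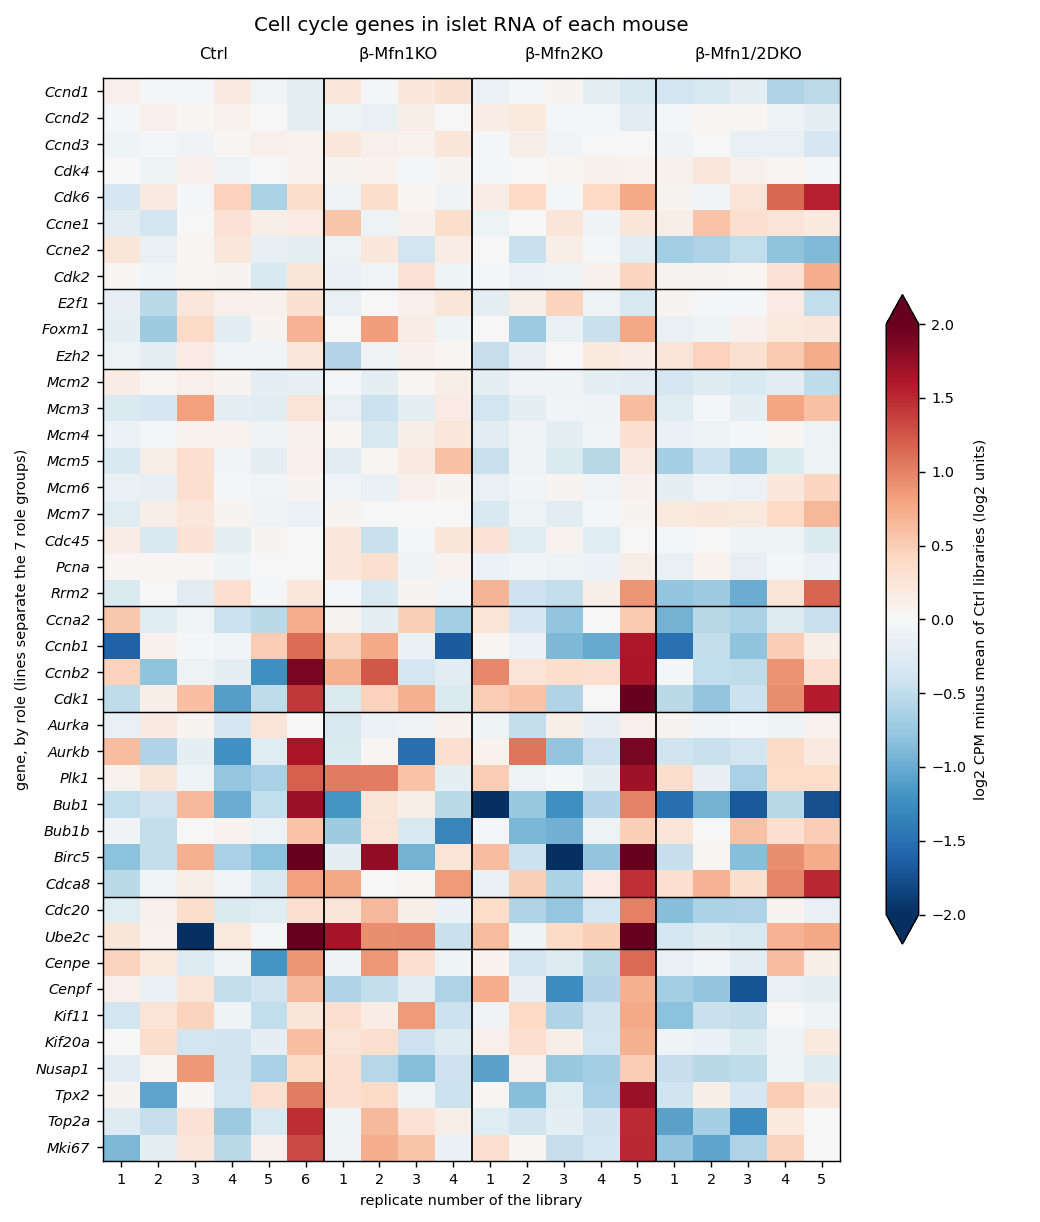
Log2 CPM of the 41 members in the 20 libraries, as the difference from the mean of the Ctrl libraries (colour, log2 units, with the scale ending at -2 and 2). Genes are ordered by role and columns by genotype and replicate number. The S to M phase genes are red in Ctrl replicate 6 and β-Mfn2KO replicate 5, and *Ccnd1* and *Ccne2* are blue in all 5 β-Mfn1/2DKO libraries.

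Some libraries stood apart in cells other than β-cells. Ctrl replicate 6 and β-Mfn2KO replicate 5, the stroma-rich libraries, held summed normalized counts of 26922 and 36865 over 10 macrophage markers, against 3041 to 7112 in the other 18 libraries. Over 9 fibroblast and pericyte markers they held 13953 and 14982, against 1092 to 4943. β-Mfn1/2DKO replicates 4 and 5, the acinar-rich libraries, held 766367 and 2004488 over 16 acinar markers, against 20742 to 35407 in the other 3 of their group, 13675 to 86585 in Ctrl, 4921 to 28657 in β-Mfn1KO and 21937 to 323038 in β-Mfn2KO. Replicate 4 also held the highest lymphocyte (845) and endothelial (14294) sums of all libraries. Outside the stroma-rich libraries it held the highest macrophage (7112) and fibroblast and pericyte (4943) sums. Against Ctrl, 15 of the 16 acinar markers and 9 of the 9 endothelial markers were higher in β-Mfn1/2DKO and 9 of the 9 β-cell markers were lower (edgeR, adjusted p under 0.05). The endothelial sums were 6223 to 9472 in Ctrl and 9045 to 14294 in β-Mfn1/2DKO, and the β-cell sums were 6031644 to 9654684 and 2662009.8 to 3616297. Of the ductal markers 3 of 7 were higher, of the alpha and delta cell markers 1 of 7, of the fibroblast and pericyte markers 1 of 9, of the macrophage markers 1 of 10 was lower, and of the lymphocyte markers 0 of 10 passed. No marker of these 8 lists was at 0 in every library. The part of these cells in the results below was not tested, and calls that were lost without those libraries are named beside the results.

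With both mitofusins deleted, the share of cell cycle genes called was near that of all genes when no filter was used. The calls were 2 G1 cyclins, 2 subunits of the replicative helicase, 1 chromatin regulator and 1 checkpoint kinase. Against Ctrl, 6 of the 41 members passed an adjusted p of 0.05 in β-Mfn1/2DKO (14.6%), where 16.5% of all genes tested did (edgeR quasi-likelihood test, Benjamini-Hochberg over 28632 genes). *Ccnd1*, *Ccne2*, *Mcm2* and *Bub1* were lower, where 6.86% of all genes were, and *Ezh2* and *Mcm7* were higher, where 9.59% were. Both an adjusted p under 0.05 and a fold over 1.5 were met by 2 of the 41, *Ccne2* and *Bub1*, against 5.21% of all genes. Among the 37 members that passed the filter on low counts, 7 were called (18.9%), against 35.2% of the 15267 genes kept. The share of members called in either direction lay near that of all genes with no filter and below it with the filter. The median log2 fold change was -0.08 over the 41 members and 0.06 over all genes. Without the acinar-rich libraries the calls of *Ezh2*, *Mcm7* and *Bub1* were lost (adjusted p = 0.119, 0.147 and 0.0560), and *Mcm5* and *Rrm2* were called as lower. Every β-Mfn1/2DKO library was deep and no Ctrl library was, so genotype and depth cannot be told apart in this comparison. Islet RNA is a mixture of cells, and fewer cells of a type cannot be told apart from less RNA per cell. The study measured β-cell mass in pancreas sections and reported no significant difference between genotypes, a measure that these libraries do not hold.

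In the single knockouts no member passed the test. In β-Mfn2KO against Ctrl 0 of the 41 were called, where 0.0559% of all genes were, and in β-Mfn1KO against Ctrl 0 were, where 0.0279% of all genes were. At an unadjusted p under 0.05, edgeR gave 0 members and DESeq2 1 (*Mcm2*) in β-Mfn2KO, and edgeR gave 2 (*Ccnd3* and *Pcna*) and DESeq2 1 (*Ccnd3*) in β-Mfn1KO. The medians over the 41 members were 0.03 and 0.01 on the log2 scale. Between males and females, 0 members passed, where 0.126% of all genes did, and 1 (*Ezh2*) by edgeR and 3 (*Ccnd2*, *Ezh2* and *Ube2c*) by DESeq2 had an unadjusted p under 0.05.

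The double knockout was also set against each single knockout. Against β-Mfn2KO 4 members passed, where 13.0% of all genes did: *Ccnd1* and *Ccne2* were lower and *Ezh2* and *Mcm7* higher. Against β-Mfn1KO 8 passed, where 17.4% of all genes did: *Ccnd1*, *Ccnd3*, *Ccne2*, *Mcm2*, *Mcm5* and *Pcna* were lower and *Ezh2* and *Mcm7* higher. These comparisons share the β-Mfn1/2DKO libraries, so that their calls are not independent of each other. No β-Mfn1KO library was deep, so genotype and depth cannot be told apart against β-Mfn1KO either. None of those 8 calls held with depth class (deep or not) in the model. The test of whether losing *Mfn1* acts differently without *Mfn2* than with it called 2 members, *Ccnd1* and *Ccnd3*, where 5.92% of all genes were called. Without the acinar-rich libraries neither passed in that test, *Ccnd1*, *Ccne2* and *Ezh2* did not pass against β-Mfn2KO, and *Mcm2*, *Mcm7* and *Pcna* did not pass against β-Mfn1KO.

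*Ccnd1* (ENSMUSG00000070348, chr7:144929931-144939925 on GRCm38) encodes cyclin D1, which opens G1 with Cdk4 or Cdk6. In Ctrl it ran from 6668 to 8542 normalized counts with a median of 7416. In β-Mfn1KO it stood at 8715, 7405, 8759 and 9300.2, and in β-Mfn2KO at 6943, 7364, 7791, 6663 and 6055. In β-Mfn1/2DKO it stood at 5794, 6013, 6645, 4967 and 5269.6. All 5 libraries of the double knockout were thus below the lowest Ctrl and the lowest β-Mfn1KO library, and 4 of them were below every β-Mfn2KO library. The log2 fold change was -0.40 ± 0.08 (SE) against Ctrl (adjusted p = 0.00126), -0.57 ± 0.09 against β-Mfn1KO (adjusted p = 7.14e-05) and -0.28 ± 0.08 against β-Mfn2KO (adjusted p = 0.0303). The 2 lowest values of the double knockout were those of the acinar-rich libraries, and without these the change against Ctrl was -0.28 (adjusted p = 0.0366). The difference between the effects of *Mfn1* loss without and with *Mfn2* was -0.45 ± 0.12 (adjusted p = 0.0255). Without the acinar-rich libraries that difference was -0.33 ± 0.12 (adjusted p = 0.124), and the change against β-Mfn2KO was -0.16 ± 0.09 (adjusted p = 0.300). The call against Ctrl held in 32 of 33 alternative settings, and was lost with depth class in the model (-0.19 ± 0.14, adjusted p = 0.601). That against β-Mfn2KO held in 22 of 34 and that of the difference in 22 of 32. In each case 20 of the settings leave out 1 library. In a comparison of 2 groups, some of these leave out a library of another group. That bears on the result only through scaling and the shared estimate of spread, so such settings test the call little. The exons of *Ccnd1* overlap those of *LTO1* on the opposite strand over 1100 bases, which did not pass the test (0.03 ± 0.07, adjusted p = 0.835).

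The other D-type cyclins and their kinase did not pass against Ctrl in this test. *Ccnd2* encodes cyclin D2, the most abundant D-type cyclin in these islets, and ran from 27632 to 33322 in Ctrl with a median of 31474. In β-Mfn1KO it stood at 28942, 28191, 34158 and 30861 and in β-Mfn2KO at 34414, 35491, 30702, 30709 and 26913, whereas the β-Mfn1/2DKO libraries held 30529, 31955, 31970.3, 29016 and 27091. The groups overlapped throughout, and the interval of the log2 fold change in β-Mfn1/2DKO against Ctrl ran from -0.20 to 0.10. *Ccnd3*, cyclin D3, ran from 1704 to 1941 in Ctrl with a median of 1816. It stood at 2094, 1944, 1907 and 2143 in β-Mfn1KO and at 1780.1, 1963, 1742, 1799 and 1827 in β-Mfn2KO, while the β-Mfn1/2DKO libraries held 1731, 1808, 1636, 1640.2 and 1442. It was lower in β-Mfn1/2DKO than in β-Mfn1KO, with no overlap (log2 fold change -0.29 ± 0.06, adjusted p = 0.00155). The difference between both effects of *Mfn1* loss was -0.30 ± 0.08 (adjusted p = 0.0356), a call that held in 15 of 32 settings. That call was lost without the acinar-rich libraries (-0.21 ± 0.08, adjusted p = 0.160) and also without the stroma-rich libraries. Against Ctrl it was -0.14 ± 0.06 (adjusted p = 0.102). It was called there by DESeq2 (-0.17 ± 0.06, adjusted p = 0.0168), with DESeq2 size factors, with the filter on low counts (adjusted p = 0.0241) and with thinned counts (adjusted p = 0.0225). *Cdk4*, the kinase of the D-type cyclins, ran from 5377 to 6124 in Ctrl with a median of 5684. It stood at 5921, 6016, 5561 and 5921 in β-Mfn1KO and at 5543, 5758, 5855, 6073 and 6021 in β-Mfn2KO, while the β-Mfn1/2DKO libraries held 6097, 6682, 6082, 5846 and 5583. Its log2 fold change in β-Mfn1/2DKO against Ctrl was 0.08, with an interval from -0.02 to 0.19, and 0.22 when libraries were scaled by their totals alone (adjusted p = 0.0172).

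*Ccne2* (ENSMUSG00000028212, chr4:11191351-11204779), a cyclin E that drives entry into S phase with Cdk2, gave the lowest p of all members against Ctrl. It ran from 221 to 299 in Ctrl with a median of 242, and stood at 234, 291, 194 and 280.0 in β-Mfn1KO and at 251, 185, 277, 246 and 216 in β-Mfn2KO. In β-Mfn1/2DKO it stood at 156, 163, 179, 144 and 135, below every library of the other 3 genotypes. The log2 fold change was -0.70 ± 0.13 against Ctrl, 1.63-fold lower (adjusted p = 0.000542), -0.68 ± 0.14 against β-Mfn1KO (adjusted p = 0.00163) and -0.59 ± 0.13 against β-Mfn2KO (adjusted p = 0.00433). Without the stroma-rich and acinar-rich libraries it was -0.63 against Ctrl (adjusted p = 0.00489). Against β-Mfn2KO the call was lost without the acinar-rich libraries (-0.48 ± 0.15, adjusted p = 0.0517) and with thinned counts, and it was kept without all 4 (-0.51 ± 0.15, adjusted p = 0.0340). Its exons overlap those of *Ints8* on the opposite strand over 609 bases, and *Ints8* had 779% of its counts. *Ints8* was also lower, from a mean of 1611 to 1374 (log2 fold change -0.23 ± 0.06, adjusted p = 0.00524). Whether counting used strand is not given in the sources used here, so that reads of both genes cannot be told apart. The other G1 members did not pass the test of edgeR with TMM: in β-Mfn1/2DKO against Ctrl, *Cdk6* was at 0.70, *Ccne1* at 0.30 and *Cdk2* at 0.25 on the log2 scale (adjusted p = 0.0945, 0.234 and 0.293). *Cdk6* was called as higher when libraries were scaled by their totals alone (0.83 ± 0.28, adjusted p = 0.0355), and without β-Mfn1/2DKO replicate 1 or 2. It reached 126 and 166 in the acinar-rich libraries and lay at 53.5 to 67.0 in the other 3 of the group.

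Among the regulators, *Ezh2* was higher in the double knockout, while *E2f1* and *Foxm1* did not pass. *Ezh2* (ENSMUSG00000029687, chr6:47530139-47595341) encodes the histone methyltransferase of Polycomb complex PRC2, which represses the CDK inhibitor locus *Cdkn2a* in replicating β-cells. It ran from 252 to 333 in Ctrl with a median of 277. It stood at 189.8, 272, 303 and 294 in β-Mfn1KO and at 209, 257, 288, 329.8 and 318 in β-Mfn2KO, while the β-Mfn1/2DKO libraries held 344, 395, 355, 412 and 480.4, above every library of the other genotypes. The log2 fold change was 0.46 ± 0.13 against Ctrl (adjusted p = 0.0150), 0.58 ± 0.15 against β-Mfn1KO (adjusted p = 0.00669) and 0.49 ± 0.13 against β-Mfn2KO (adjusted p = 0.0162). The 2 highest values were those of the acinar-rich libraries, and without these the rise against Ctrl was 0.36 ± 0.14 and not called (adjusted p = 0.119). Without β-Mfn1/2DKO replicate 5 alone it was 0.39 (adjusted p = 0.0519). Without the acinar-rich pair it was 0.38 ± 0.15 against β-Mfn2KO (adjusted p = 0.123) and 0.48 ± 0.16 against β-Mfn1KO, still called (adjusted p = 0.0474). *E2f1*, an activator of S phase genes, was at -0.07 and *Foxm1*, an activator of mitotic genes, at 0.00.

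The 9 DNA replication genes moved in both directions in β-Mfn1/2DKO. *Mcm2* to *Mcm7* encode the 6 subunits of the MCM helicase, which unwinds DNA ahead of the fork, and their log2 fold changes against Ctrl were -0.33 for *Mcm2*, 0.19 for *Mcm3*, -0.07 for *Mcm4*, -0.43 for *Mcm5*, 0.06 for *Mcm6* and 0.33 for *Mcm7*. Of the 6, *Mcm2* and *Mcm7* passed, in opposite directions.

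*Mcm2* (ENSMUSG00000002870, chr6:88883474-88898780) ran from 719.9 to 913 in Ctrl with a median of 849. It stood at 809.5, 715, 839 and 898 in β-Mfn1KO and at 728, 777, 781, 720.3 and 703 in β-Mfn2KO, while the β-Mfn1/2DKO libraries held 647, 685, 663, 707 and 578. The double knockout lay below every Ctrl and β-Mfn1KO library and overlapped β-Mfn2KO. The log2 fold change was -0.33 ± 0.07 against Ctrl (adjusted p = 0.00279) and -0.31 ± 0.08 against β-Mfn1KO (adjusted p = 0.00816), and -0.17 ± 0.08 against β-Mfn2KO, which did not pass (adjusted p = 0.144). Without the stroma-rich and acinar-rich libraries it was -0.32 against Ctrl (adjusted p = 0.0110), and with libraries scaled by their totals alone -0.19 (adjusted p = 0.114). Without the acinar-rich libraries it was -0.27 ± 0.09 against β-Mfn1KO (adjusted p = 0.0509). No other counted gene overlaps it.

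*Mcm7* (ENSMUSG00000029730, chr5:138164583-138172422) ran from 756 to 1055 in Ctrl with a median of 896. It stood at 932, 907, 889 and 895 in β-Mfn1KO and at 722, 833, 778, 881 and 931 in β-Mfn2KO, while the β-Mfn1/2DKO libraries held 1025, 1037, 1026, 1191 and 1422. The double knockout lay above both single knockouts and overlapped Ctrl. The log2 fold change was 0.33 ± 0.09 against Ctrl (adjusted p = 0.0129), 0.33 ± 0.10 against β-Mfn1KO (adjusted p = 0.0258) and 0.45 ± 0.09 against β-Mfn2KO (adjusted p = 0.00209). Without the acinar-rich libraries, which held the 2 highest values, it was 0.21 ± 0.09 against Ctrl (adjusted p = 0.147), and without replicate 5 alone 0.24 (adjusted p = 0.0511). Without the acinar-rich pair it was 0.21 ± 0.10 against β-Mfn1KO (adjusted p = 0.184) and 0.32 ± 0.09 against β-Mfn2KO, still called (adjusted p = 0.0260). The call against β-Mfn1KO held in 23 of 33 settings. It was also lost with sex in the model, with thinned counts, and without β-Mfn1KO replicate 2, 3 or 4 or β-Mfn1/2DKO replicate 5. *Cops6* and *Ap4m1* overlap its exons on the opposite strand with 247% and 102% of its counts, and their log2 fold changes were 0.08 and 0.04 (adjusted p = 0.365 and 0.751).

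*Mcm5* and *Pcna* passed the edgeR test in β-Mfn1/2DKO against β-Mfn1KO and not against Ctrl or β-Mfn2KO. *Mcm5* ran from 180.3 to 283 in Ctrl with a median of 227, and stood at 193, 228, 253 and 335 in β-Mfn1KO and at 164, 212, 183, 152 and 252 in β-Mfn2KO, while the β-Mfn1/2DKO libraries held 140.2, 165, 140.4, 184 and 209. The values of the double knockout overlapped those of all other groups, and the log2 fold change was -0.59 ± 0.18 against β-Mfn1KO (adjusted p = 0.0229) and -0.43 ± 0.16 against Ctrl (adjusted p = 0.0765). The call against β-Mfn1KO held in 27 of 33 settings. It was lost without β-Mfn1KO replicate 4 (-0.42), without β-Mfn1/2DKO replicate 1, 2 or 3, and when libraries were scaled by their totals alone. Without the acinar-rich libraries the value against Ctrl was -0.58 ± 0.18 and was called (adjusted p = 0.0396), as it was by DESeq2 with all libraries (adjusted p = 0.0237) and with the filter on low counts (adjusted p = 0.0398). *Pcna* ran from 2073 to 2245 in Ctrl with a median of 2213, and stood at 2543, 2730.3, 2084 and 2309 in β-Mfn1KO and at 2011, 2099.7, 2038, 2031 and 2389 in β-Mfn2KO, while the β-Mfn1/2DKO libraries held 1988, 2295, 1953, 2128 and 2030.4. Against β-Mfn1KO it was -0.22 ± 0.07 (adjusted p = 0.0295) and against Ctrl -0.08, with an interval from -0.21 to 0.05. Its call against β-Mfn1KO held in 19 of 33 settings. It ended without the acinar-rich pair (-0.19 ± 0.08, adjusted p = 0.135), with sex in the model and when libraries were scaled by their totals alone. It also ended without β-Mfn1KO replicate 1 or 2, β-Mfn2KO replicate 3 or β-Mfn1/2DKO replicate 1, 3, 4 or 5. *Rrm2*, a subunit of ribonucleotide reductase, read 40.6, 42.4 and 34.9 in the first 3 β-Mfn1/2DKO libraries, 85.4 and 163 in the acinar-rich ones and 58.1 to 91.2 in Ctrl. Its log2 fold change against Ctrl was 0.01 with all libraries and -0.86 ± 0.27 without the acinar-rich ones (adjusted p = 0.0427). *Cdc45*, which loads onto the helicase, was at -0.10 (adjusted p = 0.688).

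**Figure D3:**
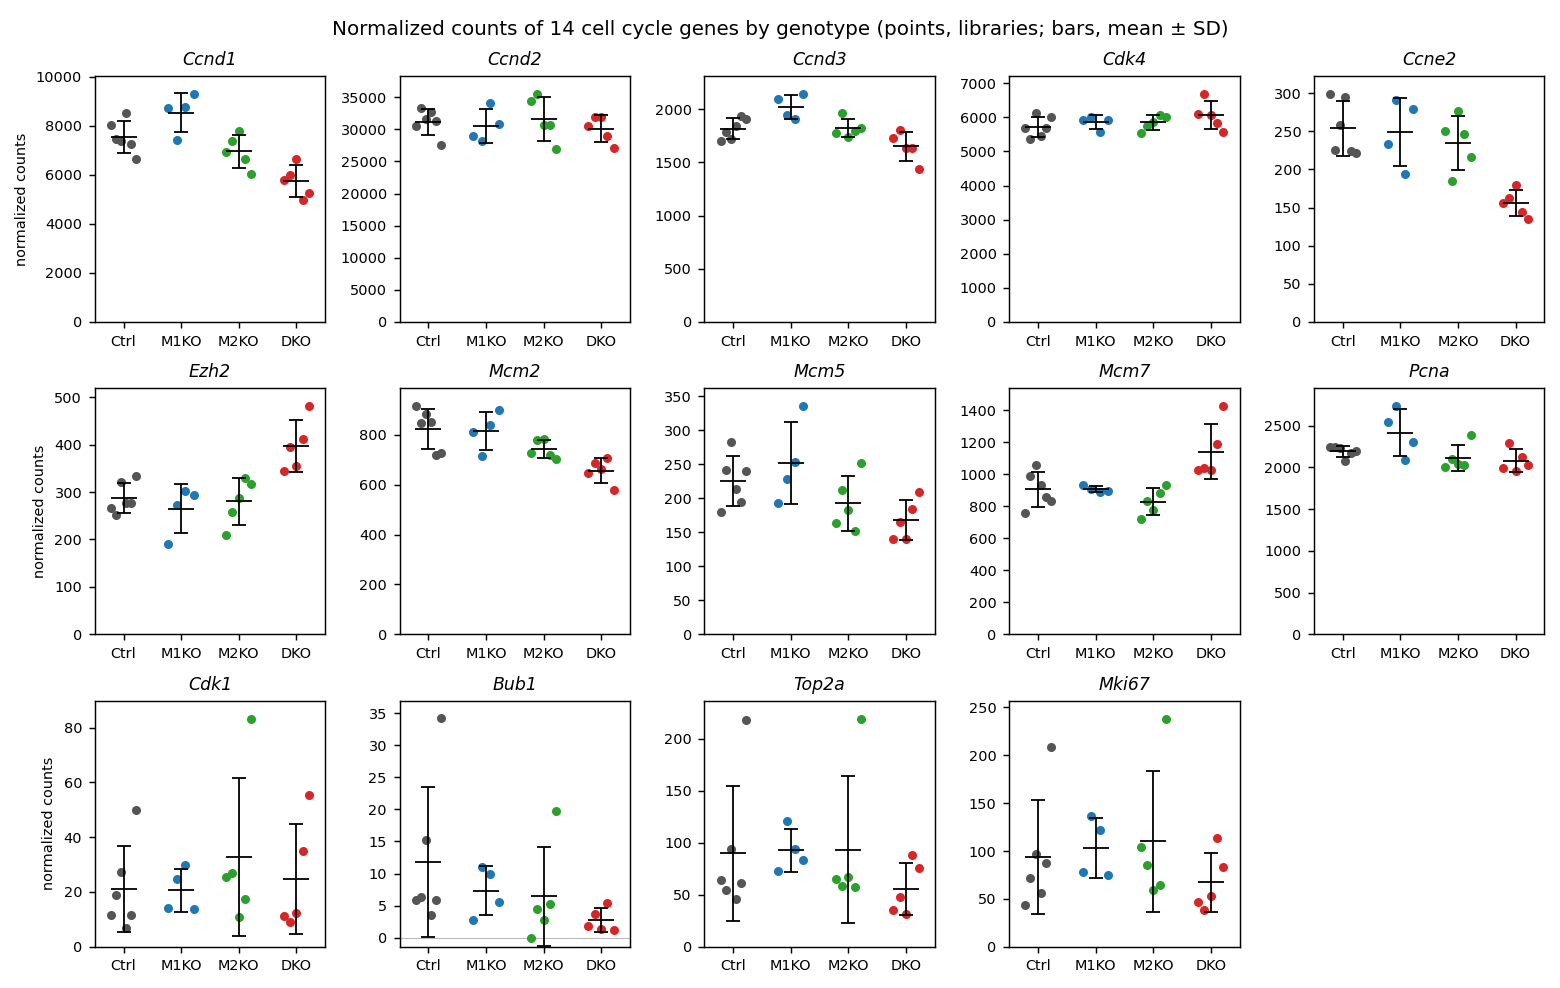
Normalized counts (y axes, linear, starting at 0 or, for *Bub1*, just below it) of 14 members in Ctrl, β-Mfn1KO (M1KO), β-Mfn2KO (M2KO) and β-Mfn1/2DKO (DKO) islets, with 1 point per library and bars for mean ± SD. *Ccne2* lies at 135 to 179 in the double knockout, below all other libraries, and *Top2a*, *Mki67* and *Cdk1* have 1 high library each in Ctrl and in β-Mfn2KO.

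Among the 21 S to M phase genes, single libraries stood out within a genotype. In β-Mfn1/2DKO against Ctrl 18 of the 21 had a negative log2 fold change, with a median of -0.40, and 1 passed the test. Of the 21, 17 had their highest Ctrl value in Ctrl replicate 6 and 19 their highest β-Mfn2KO value in β-Mfn2KO replicate 5, the stroma-rich libraries. For 12 of them these were the 2 highest of all 20 libraries, which held for 0 of the other 20 members. In β-Mfn1/2DKO, 18 of the 21 were higher in both acinar-rich libraries than in each of the other 3, which held for 9 of the other 20. Summed over the 21 genes, Ctrl replicate 6 held 1765 normalized counts and β-Mfn2KO replicate 5 held 2027. The other Ctrl libraries held 726 to 1015, the other β-Mfn2KO libraries 699.9 to 1009.9 and the β-Mfn1KO libraries 762 to 1207. The 5 β-Mfn1/2DKO libraries held 723, 738, 737, 1093 and 1064, of which the last 2 are the acinar-rich ones.

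**Figure D4:**
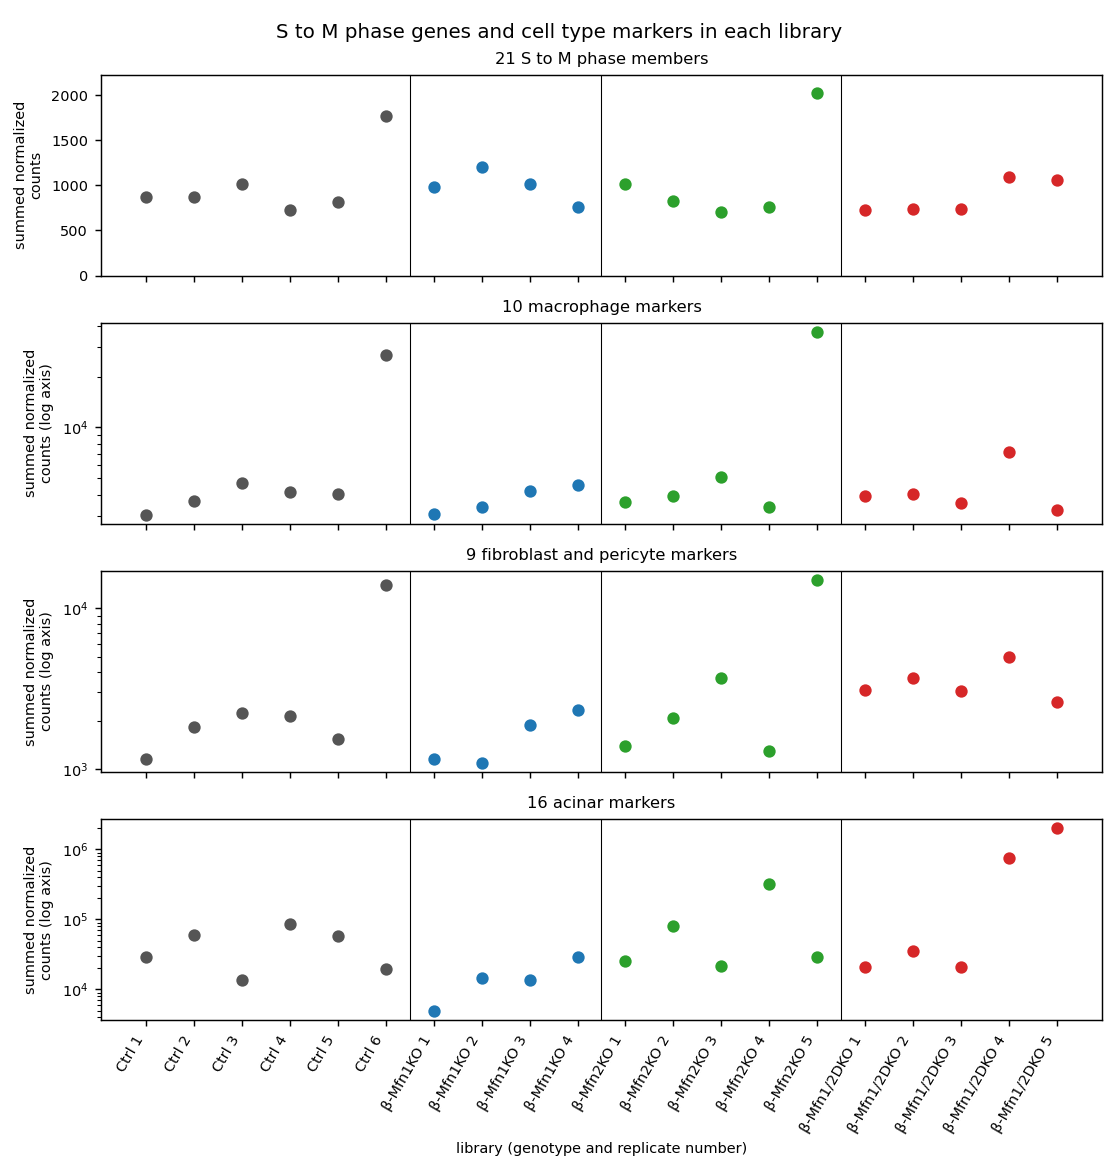
Summed normalized counts (y axes) of the 21 S to M phase members and of macrophage, fibroblast and pericyte, and acinar markers in each of the 20 libraries (x axis, coloured by genotype; the lower 3 panels have log axes). Ctrl replicate 6 and β-Mfn2KO replicate 5 are highest for the S to M phase members (1765 and 2027) and for the macrophage markers (26922 and 36865).

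*Mki67*, the antigen used to count proliferating cells, ran from 43.6 to 209 in Ctrl with a median of 79.7. It stood at 78.2, 137, 122 and 74.8 in β-Mfn1KO and at 104, 84.9, 59.2, 64.4 and 238 in β-Mfn2KO, while the β-Mfn1/2DKO libraries held 47.0, 38.7, 53.3, 114 and 82.9. The groups overlapped, and the log2 fold change against Ctrl was -0.49 ± 0.39, with an interval from -1.30 to 0.33. Without the stroma-rich libraries it was -0.09 ± 0.29, and without these and the acinar-rich ones -0.60 ± 0.26 (adjusted p = 0.140). *Top2a*, the topoisomerase that untangles chromosomes, ran from 45.6 to 218 in Ctrl with a median of 62.6. It stood at 72.6, 121, 94.4 and 83.2 in β-Mfn1KO and at 64.9, 58.1, 67.3, 57.6 and 219 in β-Mfn2KO, while the β-Mfn1/2DKO libraries held 35.4, 47.5, 31.4, 87.8 and 76.0. Its log2 fold change against Ctrl was -0.69 ± 0.41 (adjusted p = 0.307), -0.21 without the stroma-rich libraries, and -0.73 ± 0.24 without all 4 libraries, where it passed (adjusted p = 0.0392). *Cdk1*, the kinase that starts mitosis, ran from 7.02 to 49.8 in Ctrl with a median of 15.3. It stood at 14, 24.7, 29.8 and 13.9 in β-Mfn1KO and at 25.4, 26.8, 10.8, 17.4 and 83.2 in β-Mfn2KO, while the β-Mfn1/2DKO libraries held 11.4, 9.22, 12.3, 34.9 and 55.4. Its log2 fold change against Ctrl was 0.21 ± 0.56, and turned to -0.91 ± 0.56 without the acinar-rich libraries.

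*Bub1* (ENSMUSG00000027379, chr2:127801122-127831865), a kinase of the spindle checkpoint, was the 1 S to M phase gene called in β-Mfn1/2DKO against Ctrl, on very few reads. It ran from 3.51 to 34.2 normalized counts in Ctrl with a median of 6.09, which are 1 to 11 reads. It stood at 2.79, 11, 9.93 and 5.54 in β-Mfn1KO and at 0, 4.47, 2.69, 5.31 and 19.8 in β-Mfn2KO, while the β-Mfn1/2DKO libraries held 1.84, 3.69, 1.41, 5.49 and 1.25. The groups overlapped, the log2 fold change was -2.04 ± 0.66 (adjusted p = 0.0363), and without Ctrl replicate 6 it was -1.38 and not called (adjusted p = 0.188). The call was also lost without the stroma-rich libraries (-1.38 ± 0.59, adjusted p = 0.119) and with the replicate block (-1.32 ± 0.70, adjusted p = 0.246). It was lost as well without the acinar-rich libraries (adjusted p = 0.0560), without Ctrl replicate 3 or without β-Mfn1/2DKO replicate 1, 3 or 5. *Bub1b*, its partner in the checkpoint, was at 0.33 and *Cdca8*, the borealin subunit of the passenger complex, at 0.82, and neither passed (adjusted p = 0.472 and 0.138). Without the stroma-rich libraries *Cdca8* was 1.04 ± 0.31 and passed as higher (adjusted p = 0.0220), and it passed with the replicate block (0.97 ± 0.31, adjusted p = 0.0353). *Bub1b* passed as higher without the stroma-rich libraries, against β-Mfn2KO (0.78 ± 0.25, adjusted p = 0.0415) and against β-Mfn1KO (0.77 ± 0.26, adjusted p = 0.0391), and against β-Mfn1KO by DESeq2 (adjusted p = 0.0458).

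The remaining S to M phase genes did not pass the edgeR test with TMM in any comparison of genotypes with all libraries at full depth. In β-Mfn1/2DKO against Ctrl, the mitotic cyclins *Ccnb1* and *Ccnb2* were at -0.52 and -0.25 on the log2 scale, and cyclin A2 (*Ccna2*) was at -0.65 (adjusted p = 0.600, 0.781 and 0.106). By DESeq2 *Ccna2* was called as lower (-0.68 ± 0.26, adjusted p = 0.0346). With thinned counts *Kif11* was called as lower (-1.02 ± 0.33, adjusted p = 0.0385). Of the mitotic kinases, *Aurka* was at -0.02, *Aurkb* at -0.45 and *Plk1* at -0.06, and the passenger subunit *Birc5* was at -0.27. *Aurka* ran from 94.7 to 143 in Ctrl and from 113 to 126 in β-Mfn1/2DKO. *Cdc20*, which activates the mitotic ubiquitin ligase, and *Ube2c*, its conjugating enzyme, were at -0.45 and -0.52. The 8 genes of the spindle, kinetochore and chromosome lay between -0.71 (*Cenpf*) and -0.04 (*Cenpe*), with the motor *Kif11* at -0.40, the motor *Kif20a* at -0.12, *Nusap1* at -0.48 and *Tpx2* at -0.08. *Ccna2*, *Cdc45*, *Cdc20*, *Cdca8* and *Kif20a* each overlap exons of a gene on the opposite strand with over 10 times their counts, and 18.9% of the 75-base stretches of *Ccnb1* occur in another gene, so that their values are uncertain.

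Without the 4 libraries that stood apart, 6 members were lower in β-Mfn1/2DKO than in Ctrl and 0 were higher: *Ccnd1*, *Ccne2*, *Mcm2*, *Mcm5*, *Rrm2* and *Top2a*, where 5.19% of all genes were lower. Of the 21 S to M phase genes 18 then had a negative log2 fold change, with a median of -0.22, against 0.01 without the stroma-rich pair alone and -0.74 without the acinar-rich pair alone. Against β-Mfn1KO without the 4 libraries 10 members were lower, where 5.89% of all genes were, and *Ezh2* was higher. The 10 were *Ccnd1*, *Ccnd3*, *Ccne2*, *Mcm2*, *Mcm5*, *Rrm2* and 4 S to M phase genes, *Top2a* at -1.27 ± 0.24 (adjusted p = 0.000568), *Mki67* at -1.13 ± 0.26 (adjusted p = 0.00394), *Cdc20* at -0.96 ± 0.27 (adjusted p = 0.0176) and *Ube2c* at -1.39 ± 0.47 (adjusted p = 0.0490). Of these 4, none was called in that comparison with all libraries or without either pair alone. This set of libraries was chosen after the data had been seen. Its libraries stood apart in markers of other cells, while β-Mfn2KO replicate 4, with an acinar sum of 323038, was kept. Most S to M phase genes had the highest values of their genotype in these same 4 libraries, so the choice is not independent of the members' values. Against β-Mfn1KO, only the β-Mfn1/2DKO side lost libraries.

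**Figure D5:**
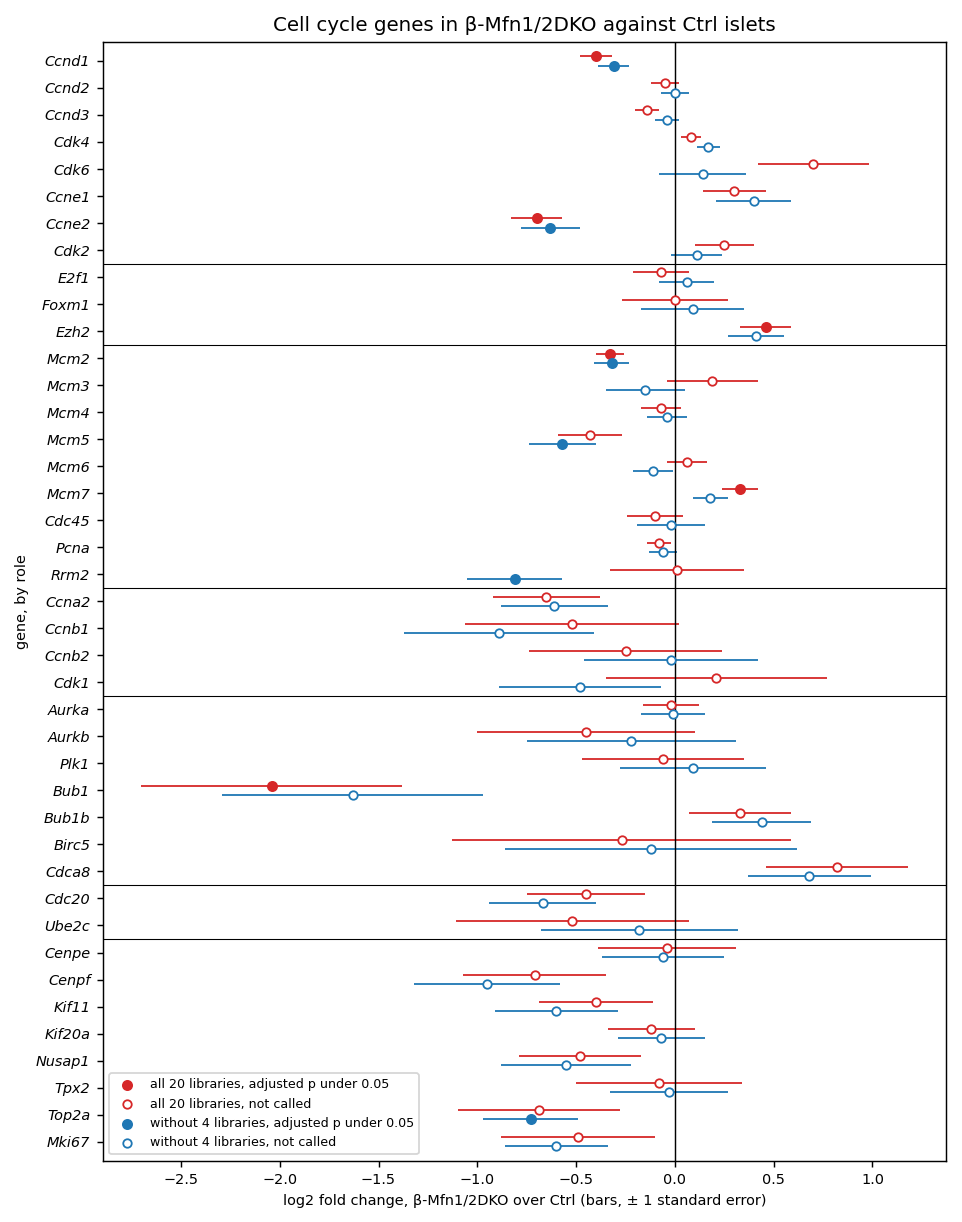
Log2 fold change (x axis) of the 41 members in β-Mfn1/2DKO over Ctrl with all 20 libraries (red) and without the stroma-rich and acinar-rich libraries (blue). Bars are ± 1 standard error, and filled points have an adjusted p under 0.05. *Ccnd1*, *Ccne2* and *Mcm2* are filled and negative in both, and *Ezh2* and *Mcm7* are filled in red only.

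Other genes of the pathway, from 5 lists, were counted in β-Mfn1/2DKO against Ctrl with all libraries, where 9.59% of all genes were higher and 6.86% lower. Of 35 other S phase genes 0 were higher and 3 lower in β-Mfn1/2DKO, and of 40 other G2 and M phase genes 1 was higher and 6 lower, with medians of -0.10 and -0.14 beside 0.06 over all genes. *Orc6*, a subunit of the origin recognition complex, was 1.61-fold lower (log2 fold change -0.68 ± 0.09, adjusted p = 2.07e-05), with 387 to 519.5 normalized counts against a Ctrl median of 768. *Tubb4b*, a β-tubulin, was 1.68-fold lower, and *Dlgap5*, a spindle protein, 2.3-fold lower (log2 fold change -1.20 ± 0.26, adjusted p = 0.00203). *Dlgap5* stood at 21.2, 18, 14.8, 25.5 and 23.1 in β-Mfn1/2DKO against a Ctrl median of 45.1, and stayed called without the 4 libraries (-1.26). *Psrc1* was higher at 1.48 ± 0.46, with 147 and 316 in the acinar-rich libraries and 41.3 to 66.8 in the other 3, and was not called without them (adjusted p = 0.687).

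Of 11 CDK inhibitors and pocket proteins 2 were higher and 1 lower. *Cdkn1a*, the inhibitor p21, stood at 4633, 4211, 3699, 7413 and 9603 in β-Mfn1/2DKO against a Ctrl median of 3661. Its log2 fold change was 0.68 ± 0.19 (adjusted p = 0.0142), and 0.20 without the acinar-rich libraries (adjusted p = 0.394). Of 15 E2F and MuvB factors 1 was higher and 1 lower, neither by 1.5-fold. Of 13 receptors and effectors of β-cell mitogens 3 were higher and 2 lower. *Prlr*, the prolactin receptor through which pregnancy expands β-cells, stood at 4058, 4192, 4214, 3796 and 3334 against a Ctrl median of 12326, 3.01-fold lower (log2 fold change -1.59 ± 0.18, adjusted p = 2.10e-06). *Myc*, a transcription factor that drives cells into the cycle, stood at 943, 819.6, 929, 1490.1 and 1671 against 365. Its log2 fold change was 1.64 ± 0.22 (adjusted p = 1.24e-05), and 1.37 without the 4 libraries. *Pdgfrb*, a receptor of platelet-derived growth factor and a pericyte marker, was 1.59-fold higher (adjusted p = 0.0210), and was not called without the acinar-rich libraries (adjusted p = 0.147). In β-Mfn2KO and in β-Mfn1KO against Ctrl, 0 genes of the 5 lists passed.

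Depth and scaling bear on these values. Of β-Mfn2KO, 2 libraries were deep as all of β-Mfn1/2DKO were, and against these alone *Ccne2* was at -0.52 ± 0.15 (adjusted p = 0.0865), *Mcm7* at 0.38, *Ezh2* at 0.34 and *Ccnd1* at -0.10, and none passed. With counts thinned to the smallest library, *Ccnd1*, *Ccne2*, *Mcm2*, *Ccnd3* and *Kif11* were called as lower and *Mcm7* as higher against Ctrl, while *Ezh2* and *Bub1* were not called. With depth class (deep or not) in the model, *Bub1* alone of the 6 called members passed against Ctrl (-4.31 ± 1.16, adjusted p = 0.0491). *Ccne2* was then at -0.66 ± 0.24 (adjusted p = 0.165) and *Ccnd1* at -0.19 ± 0.14 (adjusted p = 0.601). Only β-Mfn2KO held both deep and other libraries, so the depth term rests on that group alone. Of its 2 deep libraries, replicate 5 is stroma-rich and held the highest *Bub1* of the group (19.8). The depth term and the comparison with these 2 libraries therefore cannot separate depth from what sets that library apart. Scaling by totals alone moved the median of genes with at least 10 counts from 0.04 to 0.18 and the share of called genes that were higher from 58.3% to 85%, and 4 members were then higher (*Cdk4*, *Cdk6*, *Ezh2* and *Mcm7*) and 3 lower (*Bub1*, *Ccnd1* and *Ccne2*), with *Mcm2* not called.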

How the data were processed

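RNA of islets from 20 mice was sequenced on a NovaSeq. Per the labels and the study's methods, the authors trimmed reads with cutadapt 2.3, checked them with FastQC 0.11.8, aligned them to GRCm38 with STAR 2.6.1b and made gene count estimates with RSEM 1.3.1. The deposited counts are whole numbers, with genes at 0 in all libraries removed. A deposited normalized table was not used. Whether counting used strand is not given in the sources used here, and 71 genes had no symbol.

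Counts were scaled by TMM and fitted for all 28632 genes and 20 libraries with edgeR 4.0.16 (R 4.3.3), in 1 quasi-likelihood model with no filter. A gene was called at a Benjamini-Hochberg adjusted p under 0.05 over all genes. Standard errors were the log2 fold change over the square root of F, and intervals (95%) used 22.24 degrees of freedom. The scripts were tested on simulated data. DESeq2 1.42.0, other scalings, a filter on low counts, covariates, thinned counts and left-out libraries were the alternatives. The labels do not say more of the replicates than that they are separate samples.

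Values in every library are given for members called between genotypes and, whatever their values, for *Mki67*, *Top2a*, *Cdk1*, *Pcna*, *Ccnd1*, *Ccnd2*, *Ccnd3* and *Cdk4*. Values of other members were described by range. Other pathway genes were named where called with a fold over 1.5. *Rrm2*, *Cdk6* and *Aurka* were singled out after their values were seen. The members and all lists were chosen with earlier results of these data known.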

Additional observations from a re-analysis of the deposited data

Results flagged for a closer look

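Of 164 sets of values, each of 1 member in 1 genotype, 19 held a highest library far from the rest by Dixon's test. Chance gives about 1 in 20 sets where values are normal. The members share the same libraries and many have low counts, so the 19 cannot be weighed against that rate. Of the 19, 6 were in Ctrl replicate 6 and 13 in β-Mfn2KO replicate 5, the stroma-rich libraries. In Ctrl replicate 6 *Top2a* stood at 218 normalized counts with the next library at 94.2, and *Mki67* at 209 with the next at 97.2. *Ube2c* stood there at 68.5 (next 14.5), *Ccnb2* at 65.4 (next 23.3), *Plk1* at 46.7 (next 23.3) and *Birc5* at 34.2 (next 12.2).

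In β-Mfn2KO replicate 5 the mitotic genes *Mki67* and *Top2a* stood at 238 and 219, with the next libraries at 104 and 67.3. *Tpx2* stood at 143 (next 42.3), *Cdk1* at 83.2 (next 26.8), *Ccnb1* at 71.3 (next 22.6) and *Plk1* at 67.4 (next 28.2). *Cenpe* stood at 66.7 (next 31.0), *Birc5* at 64.7 (next 11.3), *Ube2c* at 58.8 (next 19.7) and *Bub1* at 19.8 (next 5.31). Of the replication genes *Pcna* stood at 2389 (next 2099.7), *Mcm4* at 565 (next 434) and *Mcm3* at 285 (next 178). The part of macrophages and fibroblasts in these values was not tested.

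In the interaction test of edgeR with all libraries, the effect of *Mfn1* loss differed with the state of *Mfn2* for the D-type cyclins *Ccnd1* (log2 difference -0.45, SE 0.12, adjusted p = 0.0255) and *Ccnd3* (-0.30, SE 0.08, adjusted p = 0.0356). These calls held in 22 of 32 and 15 of 32 alternative settings. Neither held without the acinar-rich libraries, with the acinar score, with depth class or under total-count scaling. The call of *Ccnd3* was also lost without the stroma-rich libraries. *Ccnd2* was not called (-0.04, SE 0.11, adjusted p = 0.976).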

How the results depend on the processing

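Of 661 values of called members under other settings, 543 kept the call, 118 lost it and 0 changed sign. Some of these settings leave out a library of a group outside the comparison, which tests a call little. The 543 are therefore no measure of stability on their own. Members called in β-Mfn1/2DKO against Ctrl numbered 6, and 1 with depth class in the model. Against β-Mfn2KO they numbered 4, and 0 with depth class in the model, 0 among libraries of like depth, 2 with thinned counts and 2 without the acinar-rich libraries. Against β-Mfn1KO they numbered 8, and 4 with the acinar score, 0 with depth class, 5 without the acinar-rich libraries and 11 without all 4 libraries. The difference between the effects of *Mfn1* loss called 2 members, and 5 by DESeq2, 5 with the filter on low counts, 0 with the acinar score, 0 with depth class, 0 without the acinar-rich libraries and 1 without all 4 libraries. The cause of these changes was not tested.

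With the replicate block, members called numbered 6, 4 and 8 in β-Mfn1/2DKO against Ctrl, β-Mfn2KO and β-Mfn1KO, and 1 for the difference between effects. Against Ctrl *Bub1* was lost under the block (-1.32, adjusted p = 0.246) and *Cdca8* gained as higher, which left 5 of the 6 called members, and for the difference *Ccnd3* was lost. Of 27 pairs of libraries with the same number, 21 had correlated deviations over 0.1 and the lowest was -0.114. The mean correlation was 0.232 for pairs with the same number and -0.051 for pairs with different numbers. The labels do not say what equal numbers share, so the main test took libraries as unpaired and the block is an alternative. Leaving out 1 library gave 4 to 7 members against Ctrl, 2 to 5 against β-Mfn2KO, 6 to 9 against β-Mfn1KO and 0 to 3 for the difference, and 0 in each single knockout and between sexes.

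Signs turned against Ctrl for uncalled members. *Ccnd2* was 0.09 under total-count scaling, 0.17 with depth class, 0.04 without the acinar-rich and 0.00 without all 4 libraries. *Ccnd3* was 0.00 and *Pcna* 0.06 under total-count scaling. *Cdk1* was -0.43 with the acinar score, -1.05 with depth class, -0.91 without the acinar-rich and -0.48 without all 4 libraries, and ran from -0.31 (without β-Mfn1/2DKO replicate 5) to 0.64 (without Ctrl replicate 6). Low counts limit the mitotic genes, and the settings without the stroma-rich libraries were chosen after seeing the data.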
